A study of Danio rerio with 18 samples.

Results

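Neuronal and synaptic transcripts of the whole zebrafish embryo were followed through 75 of the 15617 probe sets of an Affymetrix zebrafish array, in controls and in embryos whose heart had been silenced. The 75 were matched by wording, and the choice was made with earlier results of these data known. Their deposited description holds 1 of 10 word stems, among them synap, synuclein, neurofilament, stathmin, GABA, glutamate receptor, acetylcholine, neurexin and neuronal. The stems matched 76 probe sets, and 1 for nitric oxide synthesis was dropped. A single RefSeq symbol was found for 24 of the 75, and the others are called here by their description, as "synuclein-like". Not every member is a neuronal gene. The wording also took in 8 probe sets for another process, such as the synaptonemal complex of meiosis, and 7 for proteins of wider use than in neurons.

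The embryos were of the AB wild-type strain. Morphants had received, as single cells, a tnnt2 morpholino, which is a short antisense molecule that blocks the making of cardiac troponin T2, and were compared with controls. The heart of such morphants does not beat. Titles name the controls wild type, whereas the design text has a control morpholino. Total RNA of whole embryos was taken at 36, 48 and 60 hours after fertilisation, with 3 arrays in each of 6 groups. One protocol has 32 hours where the titles have 36, and the titles were followed. Every group drew equally on each pair of parents. The labels do not say whether the 3 arrays of a group came from separate clutches, so p-values measure only the spread between arrays. In whole-embryo RNA, fewer neurons and less RNA per neuron cannot be told apart.

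A synapse passes a signal from one neuron to the next, or to muscle. Vesicles loaded with transmitter are drawn to the membrane and fused with it by SNARE proteins, which include the SNAP-25 and synaptobrevin families, with synaptotagmins as calcium sensors, and the transmitter binds receptors held in place on the other side by scaffold proteins. The hours covered here are among those in which synapses form in the zebrafish embryo.

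Values are on a log2 scale, so that a difference of 1 is a doubling, and were quantile normalised between arrays. Each value is therefore relative to the other probe sets of its array, and levels of different probe sets are not compared. As deposited, the array medians ran from 1.19 to 3.86, and the median of all probe sets fell by 0.80 from 36 to 60 hours in controls and by 0.59 in morphants. The dimmest arrays were control array 1 at 36 hours, at 1.48, and control array 2 at 60 hours, at 1.19. The 3 control arrays at 36 hours also resembled each other least. Mean correlations with the other arrays of a group were taken before the filter, over the 15502 probe sets other than manufacturer's controls. They were 0.856 to 0.882 for these 3 arrays, against 0.884 to 0.960 in the other groups. Fits without the dimmest arrays were followed for named members called from 36 to 60 hours in controls or between morphants and controls. They were also followed for the largest average differences that did not pass. Where they ended such a call, or moved such a value by over 1.5 times, the result is given. Other differences were not followed in this way, among them those of ncam1b, gabrb2a, cdh2 and the neuronal protein-like probe set. Their sizes may rest on the dimmest arrays. Of the 75 members, 50 passed the filter on dim probe sets (a mean of at least 0.62 over the 18 arrays) and were tested, and 25 were too dim. The dim members included both probe sets of septin 3, both of alpha-internexin, 2 neurexins, ncam1a, gria2b, chrng and synaptotagmins I and V.

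Over the 24 hours from 36 to 60, 21 of the 50 tested members rose in controls and 2 fell, at an adjusted p under 0.05 in limma. Over all 11626 probe sets tested, 9.57% passed upwards and 8.40% downwards. Without any filter, 21 of all 75 members rose and 2 fell, against 7.36% and 6.22% of 15502. The median difference of the tested members was 0.47 on the log2 scale, against -0.02 for all tested probe sets. Of the 21, ncam2 and GABA transporter 1-like reached the filter value only through the arrays at 60 hours, so that they had to differ, and without these 2 there were 19. The count rests on the scaling: on the values as deposited 4 members rose and 4 fell, where 16.3% of all probe sets passed in either direction.

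**Figure D1:**
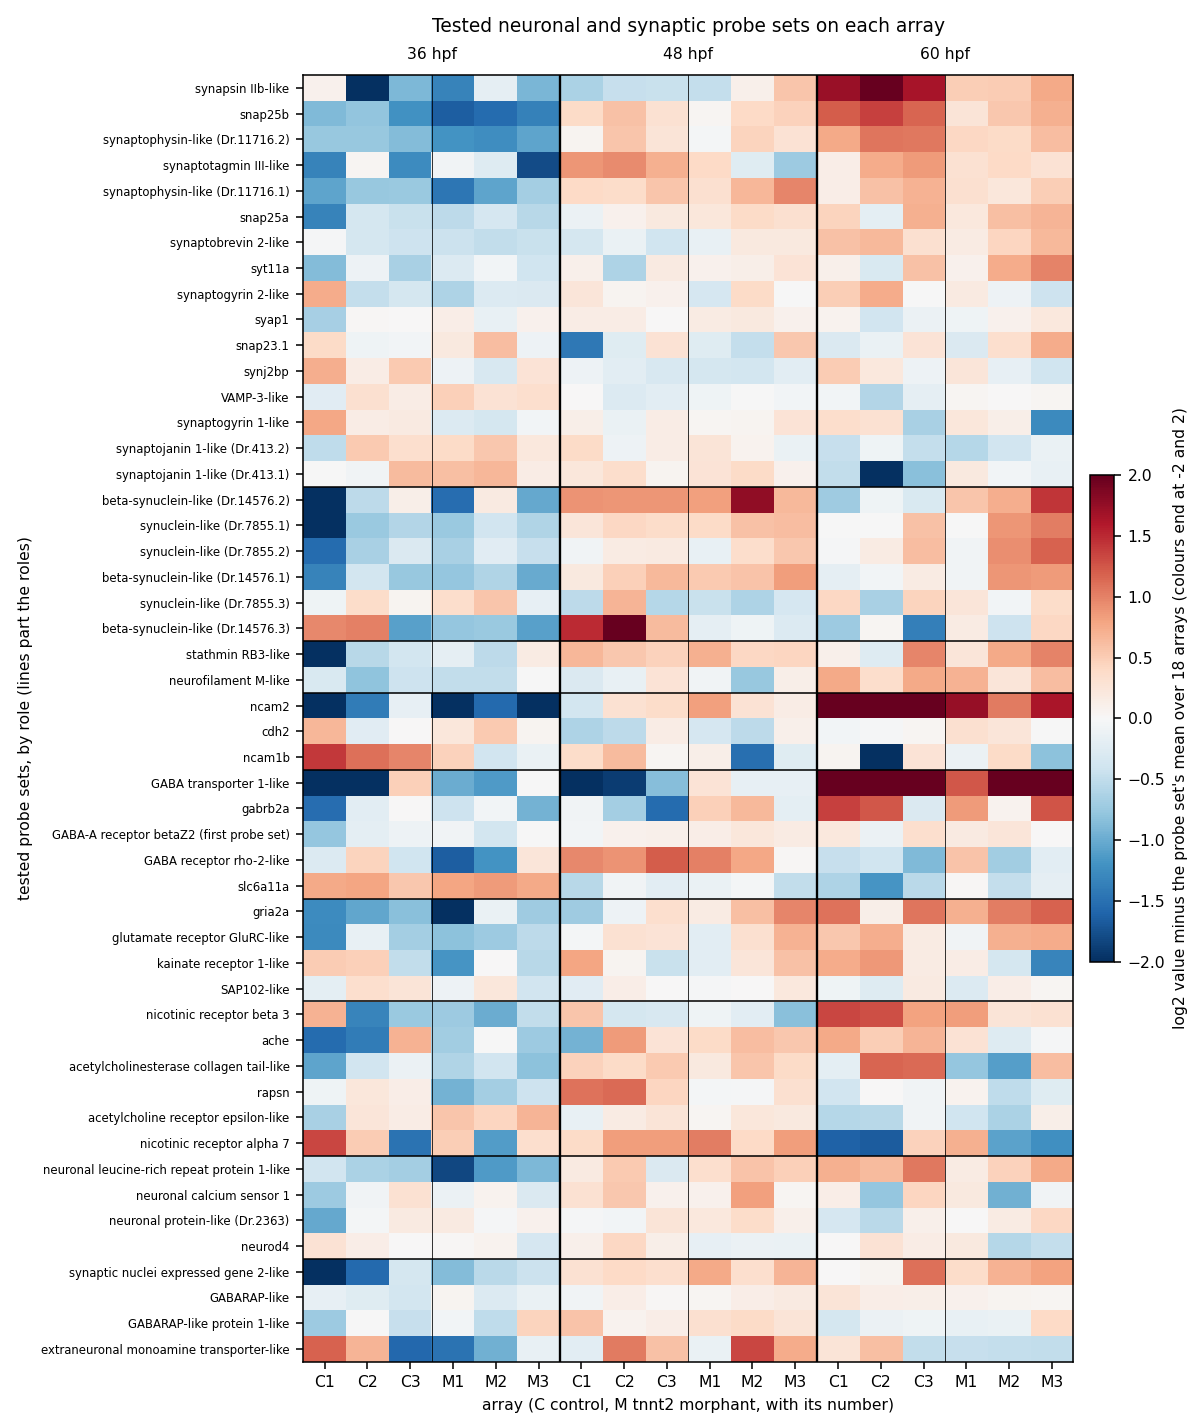
Log2 values of the 50 tested members (vertical axis, by role) on the 18 arrays (horizontal axis, by time and kind of embryo), each relative to its own mean over the arrays; red is above and blue below that mean, and the colours end at -2 and 2. By group means, 23 of the 50 turn from blue at 36 hours to red at 60 hours in both kinds of embryo, among them 8 of 16 vesicle probe sets, and 3 run the other way, among them slc6a11a.

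The vesicle and release machinery was the largest group, with 21 members and 16 tested. Among its 11 tested members of the neuronal type 7 rose and 1 fell between 36 and 60 hours in controls. For this count and those of the other roles below, the shares over all tested probe sets are 9.57% upwards and 8.40% downwards. Another 5 tested members stand for proteins of wider use: syap1, snap23.1, synaptogyrin 2-like, VAMP-3-like and synj2bp. Of these 0 passed from 36 to 60 hours, and the difference between these subgroups was not tested. The subgroups, like the roles, were set with earlier results of these data known, so their counts are a description. One of the wider kind, VAMP-3-like, named for a SNARE that serves membrane recycling in many cells, had a mean of 6.04 ± 0.28 at the first of these times and of 5.68 ± 0.28 at the last (SD over 3 arrays).

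The SNARE gene snap25b had the smallest p of the members in this comparison. Its log2 values on the 3 control arrays were 4.09, 4.17 and 3.76 at 36 hours, 5.35, 5.56 and 5.27 at 48 hours and 6.18, 6.33 and 6.14 at 60 hours. No array of one time overlapped those of another. The rise from 36 to 60 hours was 2.21 ± 0.17 (SE), or 4.63-fold (limma adjusted p = 1.32e-07), and both steps passed, at 1.39 and 0.82.

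Its sister gene snap25a encodes a near-identical protein. In controls it measured 4.78, 5.76 and 5.67 at 36 hours and 6.56, 5.91 and 6.82 at 60 hours. The times did not overlap, though the dimmest arrays, array 1 at 36 hours and array 2 at 60, held the lowest value of their group. The rise was 1.03 ± 0.23 (limma adjusted p = 0.00497), and it was 0.71 to 1.28 when each single array was left out.

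Synaptophysin is a membrane protein of the synaptic vesicle, and 2 probe sets of one transcript cluster carried its name. The second measured 3.72, 3.72 and 3.61 at 36 hours and 5.24, 5.55 and 5.53 at 60 hours in controls, a rise of 1.75 ± 0.17 (limma adjusted p = 2.34e-06). The first rose by 1.33 ± 0.22 (limma adjusted p = 0.000469), with nearly all of it in the step from 36 to 48 hours. Over the 18 arrays these probe sets followed each other with r = 0.90.

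Synapsins tie vesicles to one another and to the cytoskeleton. The synapsin IIb-like probe set measured 2.57, -0.19 and 1.58 at 36 hours, 1.84, 2.01 and 2.04 at 48 hours and 4.20, 4.60 and 4.12 at 60 hours in controls. The arrays at 36 hours scattered widely around those at 48, and all 3 at 60 hours lay above both. The rise from 36 to 60 hours was 2.99 ± 0.49, or 7.93-fold (limma adjusted p = 0.000389), and the step from 48 to 60 hours, of 2.35, also passed. The synaptotagmin III-like probe set rose by 1.43 ± 0.44 (limma adjusted p = 0.0294), but the call was lost without control array 1 or 3 at 36 hours or array 2 or 3 at 60 hours, with limma adjusted p up to 0.0933. Without the dimmest arrays of both times the rise was 1.1 (limma adjusted p = 0.147).

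Synaptojanin 1 is the lipid phosphatase that strips the coat from retrieved vesicles. Its first probe set read 2.49, 2.43 and 3.12 at 36 hours and 2.0, 0.49 and 1.66 at 60 hours in controls. It fell by 1.3 ± 0.34 (limma adjusted p = 0.0122), and by 0.85 without the dim control array 2 at 60 hours, which ended the call, as did leaving out control array 3 at 36 hours. The second probe set, at 4.26 ± 0.55 and 3.80 ± 0.22, differed by -0.45 and did not pass (limma adjusted p = 0.209). The 2 followed each other loosely over the 18 arrays, with r = 0.42.

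**Figure D2:**
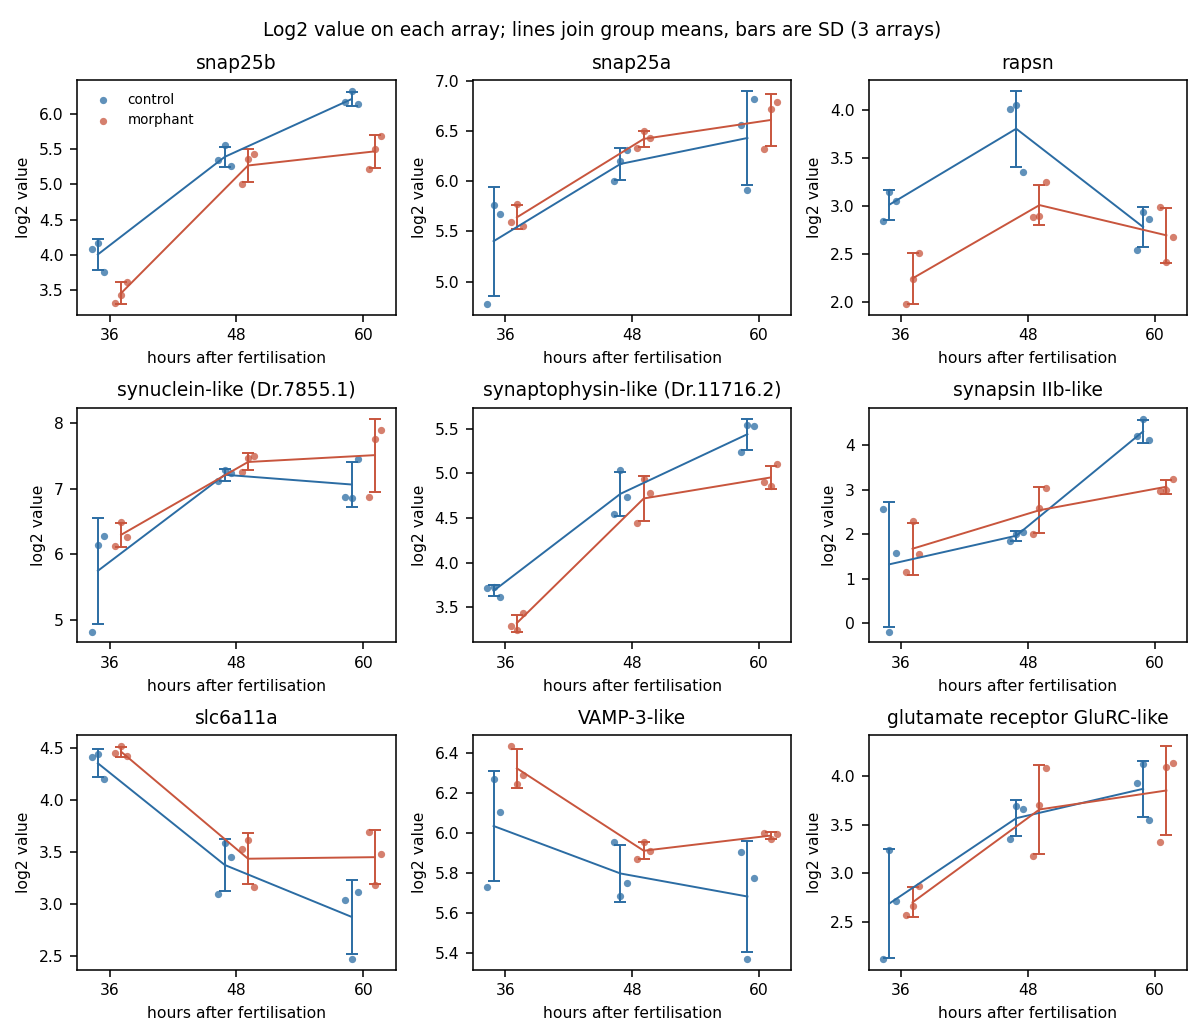
Log2 value (vertical axis) of 9 members at 36, 48 and 60 hours after fertilisation (horizontal axis), with a point for each array, lines through the group means and bars of 1 SD (n = 3), controls in blue and morphants in red. In controls, snap25b rises from about 4.0 to 6.21, with morphants below controls at 36 and 60 hours, while the snap25a groups overlap at 60 hours.

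Synucleins are small proteins of the presynaptic terminal, and all 6 of their probe sets, from 2 transcript clusters, were tested. In controls 3 rose from 36 to 60 hours and 0 fell. The first synuclein-like probe set measured 4.82, 6.14 and 6.29 at 36 hours, 7.11, 7.28 and 7.24 at 48 hours and 6.87, 6.86 and 7.46 at 60 hours. The rise of 1.31 ± 0.30 over the whole interval (limma adjusted p = 0.00507) thus came before 48 hours, and it was 0.84 without the dim control array 1 at 36 hours, which was the lowest array. The second of the cluster rose by 1.08 ± 0.31 (limma adjusted p = 0.0202) and by 0.71 without that array, when it no longer passed. The call was also lost without control array 3 at 60 hours. This probe set followed the first with r = 0.95 over the 18 arrays. The third differed by -0.05 and had r = -0.12 with the first, so the probe sets of this cluster disagree.

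The 3 probe sets described as beta-synuclein disagree as well. The first rose by 0.80 ± 0.25 in controls (limma adjusted p = 0.0334), from 4.23 ± 0.48 to 5.03 ± 0.17, after a peak of 5.50 ± 0.23 at 48 hours. That call was lost in 5 of the fits without a single control array of these times, the dimmest arrays included, with limma adjusted p up to 0.0995. Over all 18 fits without a single array the difference ran from 0.53 to 1.02. The second, a dim probe set, had a mean of 0.73 ± 0.31 at 60 hours and of 1.98 ± 0.01 at 48 hours. The third fell by 2.06 from 48 to 60 hours, from 3.99 ± 0.70 to 1.93 ± 0.70, past the threshold. Over the arrays the second followed the first with r = 0.80 and the third with r = 0.23.

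Neurofilaments stiffen the axon, and stathmins loosen microtubules in growing neurites. Of their 5 members 2 were tested, and both rose in controls. Neurofilament M-like measured 2.57, 2.08 and 2.47 at 36 hours and 3.64, 3.23 and 3.64 at 60 hours, without overlap, a rise of 1.13 ± 0.28 or 2.19-fold (limma adjusted p = 0.00816). Stathmin RB3-like measured -1.09, 2.91 and 3.10 at 36 hours and 3.57, 3.20 and 4.44 at 60 hours. Its rise of 2.10 ± 0.70 (limma adjusted p = 0.0439) was 0.72 without control array 1 at 36 hours, and the call was lost in 15 of 18 fits with a single array left out. Without the dimmest arrays of both times it was 0.98, past the threshold (limma adjusted p = 0.0229).

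Among 6 adhesion molecules and neurexins 3 were tested. Of these ncam2, a cell adhesion molecule of axons, measured -3.32, -0.68 and 0.56 at 36 hours, 0.36, 1.03 and 1.08 at 48 hours and 2.82, 3.04 and 2.90 at 60 hours in controls. The values at 36 hours lay under the filter value, where sizes are not fixed, and all arrays at 60 hours lay above all earlier ones. Its mean over the 36 and 48 hour arrays of both kinds of embryo was -0.20, so that it was tested only through the time at which it was high, and its difference of 4.07 ± 0.76 is given as a description. Its relative ncam1b measured 2.14 ± 0.22 at 36 hours and 0.21 ± 1.61 at 60 hours and did not pass (limma adjusted p = 0.0583). The broadly used N-cadherin gene cdh2 stood at 4.06 ± 0.46 and 3.89 ± 0.04 (limma adjusted p = 0.707).

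All 5 members for the inhibitory transmitter GABA were tested, and 2 rose and 1 fell in controls. The transporter gene slc6a11a, whose product clears GABA from outside the cell, measured 4.41, 4.44 and 4.19 at 36 hours, 3.10, 3.58 and 3.45 at 48 hours and 3.04, 2.47 and 3.12 at 60 hours. It fell by 1.47 ± 0.22, which is 2.78-fold lower (limma adjusted p = 0.000136), with the arrays at 36 hours above all later ones. The probe set described as GABA transporter 1-like took the opposite course, from -0.60, -2.52 and 2.12 at 36 hours to 3.88, 4.11 and 4.22 at 60 hours. It too was tested only through the time at which it was high, with a mean of 0.43 over the earlier arrays of both kinds of embryo. Its difference of 4.40 ± 0.88 is a description and was 2.79 with weights from the deposited standard errors. A GABA-A receptor probe set described as betaZ2 rose by 0.50 ± 0.17 (limma adjusted p = 0.0478), on the edge of the threshold. The call was lost in 14 of 18 fits with a single array left out, and the rise was 0.29 without control array 1 at 36 hours. A second probe set of its cluster, matched to gabrb2a, measured 0.22 ± 0.82 and 1.56 ± 0.92 (limma adjusted p = 0.166).

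Of 7 members for glutamate, the main excitatory transmitter, 4 were tested and 2 rose in controls. The AMPA receptor subunit gria2a measured 0.27, 0.50 and 0.68 at 36 hours, below the filter value on 2 of 3 arrays, and 2.61, 1.64 and 2.60 at 60 hours. The difference was 1.80 ± 0.53 (limma adjusted p = 0.0233), and the call was lost without control array 2 at 36 hours or control array 1 or 3 at 60 hours (limma adjusted p up to 0.0854). The probe set described as GluRC measured 2.11, 3.24 and 2.71 at 36 hours and 3.93, 4.12 and 3.55 at 60 hours, a rise of 1.18 ± 0.30 or 2.27-fold (limma adjusted p = 0.0105). Without the dimmest control arrays of both times it was 0.75 and no longer passed (limma adjusted p = 0.102). SAP102-like, for a scaffold that holds glutamate receptors, measured 3.57 ± 0.28 and 3.39 ± 0.22 and did not pass (limma adjusted p = 0.616).

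Of 8 members for acetylcholine, the transmitter of the neuromuscular junction, 6 were tested and 1 rose in controls from 36 to 60 hours. This was the nicotinic receptor subunit beta 3, a neuronal subunit, at 2.89, 0.87 and 1.46 at 36 hours and 3.54, 3.49 and 3.00 at 60 hours, a difference of 1.60 ± 0.43 (limma adjusted p = 0.0148). The call was lost without control array 2 at 36 hours or array 1 or 2 at 60 hours (limma adjusted p up to 0.0818), and the difference ran from 1.17 to 2.16 over the fits without a single array. The epsilon-like subunit, in mammals the subunit of the adult muscle receptor, stood at 4.38 ± 0.49 and 4.07 ± 0.28 and did not pass (limma adjusted p = 0.391). The rapsyn gene rapsn, whose product clusters acetylcholine receptors under the motor nerve ending, measured 2.85, 3.15 and 3.05 at 36 hours, 4.01, 4.06 and 3.35 at 48 hours and 2.54, 2.94 and 2.86 at 60 hours in controls. It rose by 0.79 to 48 hours and then fell by 1.02, both past the threshold, and its 3 arrays at 48 hours lay above all the others.

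Among the other descriptions with the word neuronal, 4 of 9 were tested and 1 rose. Their brightest members were level in controls from 36 to 60 hours within the error: the proneural factor neurod4 differed by 0.01 ± 0.18 and a neuronal protein-like probe set by 0.03 ± 0.23. Of the 8 members matched by a word of another process, 4 were tested and 2 rose. Synaptic nuclei expressed gene 2-like, for a nuclear envelope protein that is not of the synapse despite its name, rose by 1.73 ± 0.36 (limma adjusted p = 0.00245). GABARAP-like, for a protein that also serves autophagy, rose by 0.43 ± 0.12 (limma adjusted p = 0.0157), a call lost without control array 3 at 36 hours or array 1 at 60 hours (limma adjusted p up to 0.0706). On the values as deposited, GABARAP-like instead differed by -0.45 and the betaZ2 probe set above by -0.32. With the 8 left out, 19 of 46 tested members rose and 2 fell. Unlike the 19 given earlier, these still include ncam2 and GABA transporter 1-like, which were tested only through the time at which they were high.

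The steps of the interval differed in their share of the members. From 36 to 48 hours 15 of 50 passed in controls, of which 13 rose and 2 fell, against 22.6% of all tested probe sets in either direction. From 48 to 60 hours 11 passed, of which 7 rose and 4 fell, against 26.4% in either direction, so this share was close to the background. On the values as deposited that step turned, with 1 member higher and 37 lower, where 81.7% of all probe sets passed in either direction. Only snap25b and the second synaptophysin-like probe set rose past the threshold in both steps. Whether the steps differ from each other was not tested.

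Over the whole interval, morphants went through much the same course. From 36 to 60 hours 14 of 50 rose and 3 fell, against 6.86% and 4.98% of all tested probe sets, and 15 members (30% of the 50) passed in the same direction in both kinds of embryo, as did 8.89% of all. The 14 and the 15 include ncam2 and GABA transporter 1-like. Controls and morphants share no array. Across the 50 members their differences correlated with r = 0.87 (r = 0.74 across all 11626 tested probe sets), as a description without a test, and 43 of the 50 (86%) had the same sign, next to 76.3% of all tested probe sets. Both ncam2 and GABA transporter 1-like, at 4.07 and 4.40 in controls, are among the 43, and r without them was not computed. The morphant value for snap25b rose by 2.02 ± 0.17 (limma adjusted p = 3.54e-07), next to 2.21 in controls. The second synaptophysin-like probe set rose by 1.63 and the first synuclein-like one by 1.21, next to 1.75 and 1.31, and slc6a11a fell by 1.01, next to 1.47.

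The widest gap among called members was that of synapsin IIb-like, which measured 1.15, 2.30 and 1.56 at 36 hours and 2.97, 2.98 and 3.24 at 60 hours in morphants. The difference of 1.39 ± 0.49 did not pass (limma adjusted p = 0.076), and the F-test of whether the gap between morphants and controls changed with time gave an adjusted p of 0.620 in limma. In the step from 48 to 60 hours 0 of 50 members passed in morphants, where 0.955% of all probe sets did, and 2 had an unadjusted p under 0.05, against 16.1% of all. In that step 36 of the 50 (72%) had the same sign in controls and morphants, close to the 72.8% of all tested probe sets. The count in morphants from 36 to 60 hours rests on the scaling too, with 0 members past the threshold on the deposited values.

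**Figure D3:**
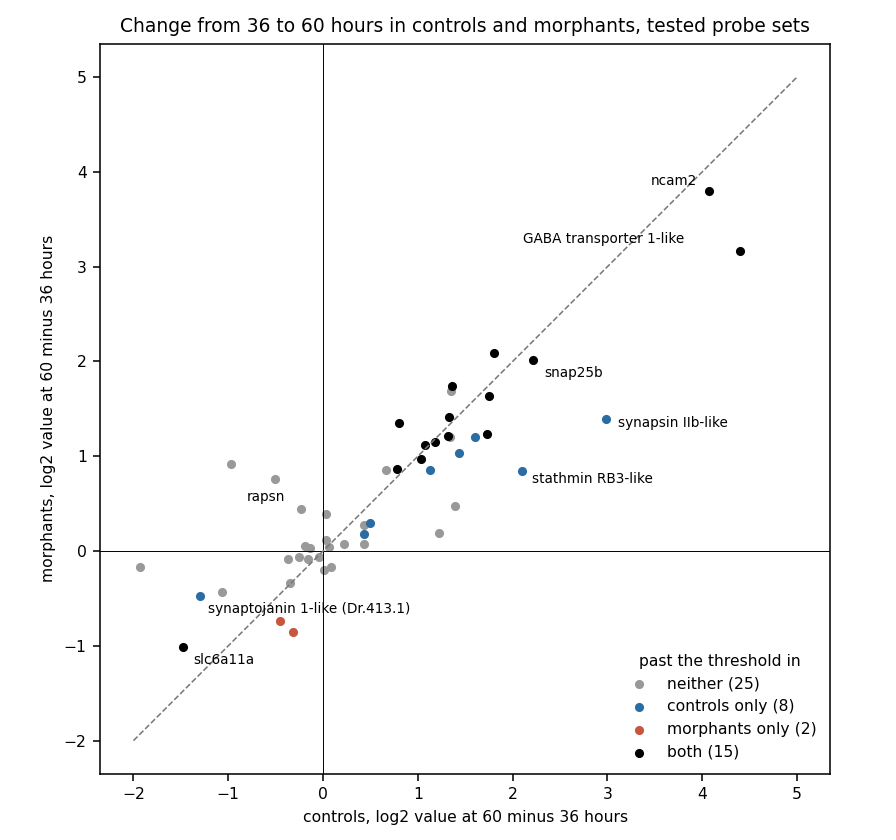
Difference in log2 value between 60 and 36 hours in controls (horizontal axis) and in morphants (vertical axis) for the 50 tested members, with a dashed line of equality; colours show in which kind of embryo the difference passed the threshold. The points run along the line (r = 0.87), and 15 members passed in both. Both values include ncam2 and GABA transporter 1-like, which were tested only through the time at which they were high.

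Between morphants and controls at a single time, few members stood apart. At 36 hours 0 of 50 passed, against 0.181% of all tested probe sets, and 8 had an unadjusted p under 0.05, as had 13.2% of all. At 48 hours 0 passed, against 0.568%, with 4 at an unadjusted p under 0.05, against 10.3%. At 60 hours 1 was lower in morphants and 0 higher, against 0.920% in either direction, with 9 at an unadjusted p under 0.05, against 17.8%. For the difference averaged over the 3 times 2 members were lower and 0 higher, against 4.81% of all, with 13 at an unadjusted p under 0.05, against 26.0%. These shares are close to those of all probe sets, and the median average difference of the 50 was 0.03. The limma F-test between times called 0 of 50, against 0.0258% of all, with 3 at an unadjusted p under 0.05, against 7.73%, and a smallest adjusted p of 0.537. The median SE was 0.30 for a member's difference at a single time and 0.17 for its average. A call needs a difference well above its SE, so with 3 arrays a group differences larger than these could also be missed.

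**Figure D4:**
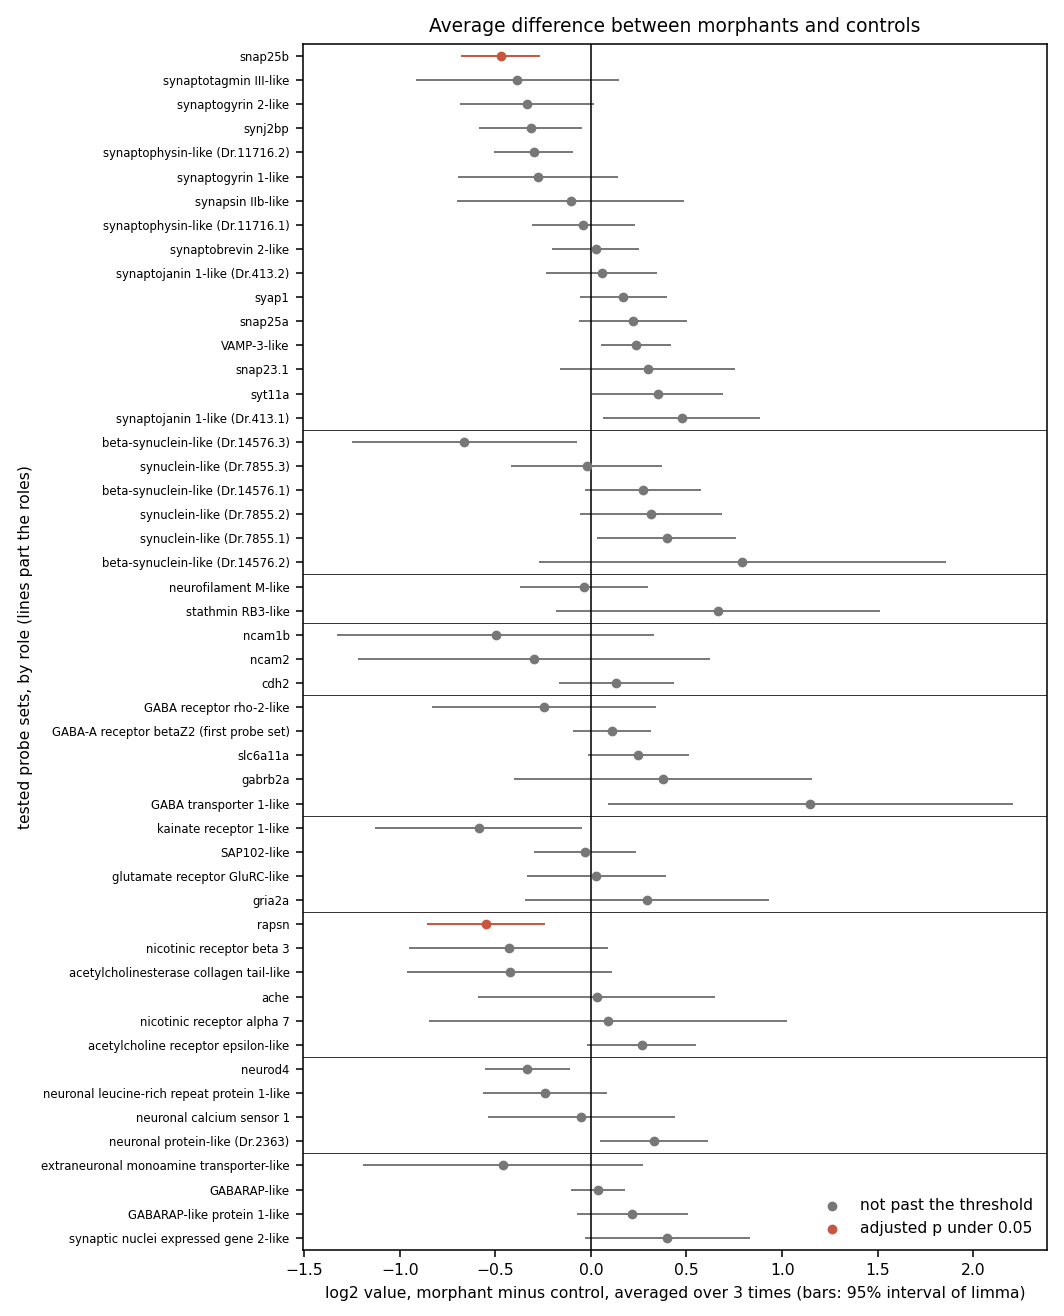
Log2 value in morphants minus controls, averaged over the 3 times (horizontal axis), for the 50 tested members by role (vertical axis), with 95% intervals from limma; the 2 members past the threshold are in red. Most intervals span 0. The 13 that do not are those of members with an unadjusted limma p under 0.05, as had 26.0% of all tested probe sets. Those of snap25b and rapsn are among them and lie below 0.

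The member with the smallest p for the average was snap25b. In morphants it measured 3.32, 3.43 and 3.62 at 36 hours, 5.01, 5.37 and 5.43 at 48 hours and 5.22, 5.50 and 5.69 at 60 hours, to be set beside the control values above. All morphant arrays lay below all control arrays at 36 and at 60 hours, and the groups overlapped at 48 hours. This pattern is not particular to snap25b: the second synaptophysin-like probe set showed it too and did not pass. Synapsin IIb-like was also lower in morphants without overlap at 60 hours and did not pass, while other members lay higher without overlap. The average difference was -0.47 ± 0.10, or 1.39-fold lower in morphants (limma adjusted p = 0.0114). It passed in all 18 fits that left out a single array, with values from -0.51 to -0.43, but not on the deposited values (limma adjusted p = 0.722) or with weights from the deposited standard errors (limma adjusted p = 0.0556).

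At 60 hours snap25b stood at 6.21 ± 0.10 in controls and 5.47 ± 0.23 in morphants. The difference of -0.74 ± 0.17, or 1.67-fold lower, was just past the threshold (limma adjusted p = 0.0453). This call was lost in 13 of the 18 fits without a single array, with limma adjusted p up to 0.198, while the difference stayed between -0.85 and -0.62. Without the dim control array 2 at 60 hours it was -0.68. At 36 hours the difference of -0.55 and at 48 hours that of -0.12 did not pass. The F-test gave no call that the gap changed with time (limma adjusted p = 0.645).

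By the group means of all arrays, its sister snap25a was not lower in morphants at any time. Morphants measured 5.59, 5.77 and 5.55 at 36 hours, 6.33, 6.5 and 6.43 at 48 hours and 6.32, 6.72 and 6.79 at 60 hours. The average difference was 0.22 with a 95% interval from -0.06 to 0.51. It rests in part on the dimmest control arrays, at 4.78 at 36 hours and 5.91 at 60 hours. The other control arrays, at 5.76 and 5.67 and at 6.56 and 6.82, lay close to those of morphants. The average for snap25a without the dimmest arrays was not computed. Within arrays, snap25b minus snap25a differed between morphants and controls by -0.79, -0.37 and -0.92 at the 3 times, or -0.69 on average. Without the dimmest control arrays of 36 and 60 hours these differences were -0.43, -0.37 and -0.60, or -0.47 on average. The pair was chosen after these values were seen, so they are given as a description with no test.

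The other call was rapsn. In morphants it measured 1.99, 2.24 and 2.52 at 36 hours, 2.89, 2.90 and 3.25 at 48 hours and 2.99, 2.42 and 2.68 at 60 hours. Morphant arrays lay below all control arrays at 36 and 48 hours and among them at 60. The average difference was -0.55 ± 0.15, or 1.46-fold lower (limma adjusted p = 0.0387). It is a call at the edge of the threshold: it was lost in 10 of 18 fits without a single array (limma adjusted p = 0.0763 without control array 2 at 60 hours), without the dimmest arrays of both times (limma adjusted p = 0.059), with no filter on dim probe sets (limma adjusted p = 0.0571), and with arrays of the same number and time paired as blocks (limma adjusted p = 0.0522). The call also rests on the scaling. It was lost on the deposited values, with arrays centred on their medians, with cyclic loess and with weights from the deposited standard errors. Of 12 alternatives 5 kept it, with limma adjusted p up to 0.822 and values from -0.61 to -0.47. The differences were -0.77, -0.79 and -0.09 at the 3 times, none past the threshold alone, and the F-test between times gave an adjusted p of 0.726 in limma.

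The authors' deposited tables, made without this normalisation, give log2 ratios of morphant over control for snap25b of -0.02 at 36 hours, -0.46 at 48 hours and -0.24 at 60 hours. Those for rapsn in the authors' deposited tables are -0.03, -0.86 and 0.02. The sizes thus differ from those above by time. At 48 hours both genes had a probability of a positive ratio under 0.05 in the authors' deposited table. So did 12 of 75 members and 17.9% of all probe sets of that table. As deposited, the array medians at 48 hours differed by -0.69 on average between morphants and controls. The ratio of -0.46 for snap25b is smaller than this shift, so it does not show snap25b as low relative to its array. That of -0.86 for rapsn is larger than the shift.

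The members with the widest average gap that did not pass were mostly dim or scattered ones. GABA transporter 1-like differed by 1.15 ± 0.51 (limma adjusted p = 0.164), with morphant arrays at 48 hours at 1.92, 1.48 and 1.49 and control arrays at -2.11, -0.25 and 0.80. The second beta-synuclein-like probe set differed by 0.79 and the third by -0.66, neither past the threshold. These were 0.33 and -0.42 without the dimmest control arrays of 36 and 60 hours. Stathmin RB3-like differed by 0.66, or 0.21 without control array 1 at 36 hours. Kainate receptor 1-like differed by -0.59 ± 0.26 (limma adjusted p = 0.163), with control arrays at 60 hours at 2.93, 3.05 and 2.36 and morphant arrays at 2.35, 1.85 and 0.87.

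A list of 72 neuron genes, 5 of them members with snap25a and snap25b included, was set beside the members. It had 20 tested genes, of which 9 rose and 1 fell from 36 to 60 hours in controls, against 9.57% and 8.40% of all tested probe sets. In morphants 10 rose and 1 fell, against 6.86% and 4.98%. In controls the axon growth gene gap43 rose by 0.76, the RNA-binding protein gene elavl4 by 1.48, the synaptobrevin gene vamp2 by 1.41 and the sodium pump gene atp1a3a by 1.81. The neuronal transcription factors neurod1, neurod2 and neurod6b rose by 1.67, 1.63 and 1.74, and the proneural factor ascl1a fell by 0.88. Between morphants and controls snap25b was the only 1 of the 20 to pass, at 60 hours and on average. Over all tested probe sets 0.920% passed at 60 hours and 4.81% on average. As snap25b is a member, this is the same call as above. The median average difference of the 20 was -0.10. The mean log2 level of the 20 ran from 4.31 to 4.56 on control arrays and from 4.24 to 4.39 on morphant arrays at 60 hours.

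Markers of other cells moved in ways that bear on these results as values. Photoreceptor and retina genes, which are of neurons too but hold no member, were lower in morphants. On average 9 of 14 tested were lower and 0 higher, against 4.81% of all tested probe sets in either direction, with a median difference of -1.16. At 60 hours 4 were lower, against 0.920%. The mean log2 level of the 14 at 60 hours ran from 3.72 to 4.33 on control arrays and from 2.30 to 2.53 on morphant arrays, without overlap. It also differed without overlap at 36 hours, at 1.88 to 2.59 and 1.22 to 1.42, and at 48 hours. The part of retinal tissue in the snap25b difference was not tested. Skeletal muscle genes, the tissue in which rapsyn acts, had 0 of 11 tested past the threshold in any comparison of morphants with controls, with a median average difference of 0.06. Of 10 tested genes of neural progenitors and radial glia, 4 fell and 1 rose in controls from 36 to 60 hours, among them the Notch ligand gene dla, which fell by 1.36, and the receptor gene notch1a, which fell by 1.05. The riser was fabp7a, at 0.93. Over all tested probe sets 8.40% fell and 9.57% rose. Between morphants and controls dla alone of the 10 passed, on average and upwards, against 4.81% of all in either direction. The mean level of these 10 did not overlap at 36 hours, at 5.44 to 5.69 on control arrays and 5.81 to 5.85 on morphant arrays. That of 3 tested genes of oligodendrocytes and myelin was lower in morphants without overlap at 48 hours, at 6.10 to 6.19 and 5.95 to 6.03, and at 60 hours. None of the 3 passed in limma, and the genes did not move together. At 48 hours 2 of the 3 were higher in morphants, with a median difference of 0.01. At 60 hours 1 was higher, with a median difference of -0.11. The 1 tested pituitary gene, prl, did not overlap at 60 hours and did not pass. Their part in the differences of the members was not tested.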

How the data were processed

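Total RNA of 18 samples was measured on 1 array each. The authors deposited log2 expression values with a standard error on the same scale, estimated with puma's mmgMOS model per the deposited readme and file names. Neither the version of puma nor the base of the logarithm was found in the labels or files used here, and the base was taken as 2. The authors' deposited tables also hold log2 ratios of the groups' combined values and a probability, a fraction from 0 to 1, of a positive ratio. Other columns of single samples numbered 0.

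After 115 manufacturer's control probe sets were left out, values were quantile normalised, the dimmest 25% of probe sets by mean (below 0.62) were dropped, and a mean per group was fitted in limma 3.58.1 (R 4.3.3) on all 18 arrays with an intensity trend. Benjamini-Hochberg adjustment ran over all 11626 tested probe sets, with a threshold of 0.05. The fit was tested on simulated data. Members, roles and gene lists were chosen with earlier results of these data known. Symbols came from a RefSeq table, through Entrez numbers and accessions. The members named were those past the threshold between morphants and controls, up to 10 in each direction in controls from 36 to 60 hours without overlap, the brightest 2 of each role, further probe sets of those clusters, and the 5 largest average differences that did not pass. Deviations of same-numbered control and morphant arrays correlated at over 0.1 for every pair at 36 and 48 hours (0.10 to 0.27 at 36), but not at 60 (0.16, -0.06 and 0.27). The labels state no pairing, and the main fit used none at any time. Fits with the array number as a block are given below. The depth of an array is not a count, and the number of arrays limits the precision.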

Additional observations from a re-analysis of the deposited data

How the results depend on the processing

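The numbers of members past the threshold between times were mostly within 1.5 times under the alternatives, and those between morphants and controls were too small to be steady. Values as deposited gave 8 for controls from 36 to 60 hours, 38 from 48 to 60 hours (1 higher and 37 lower, against 7 and 4, with 81.7% of all probe sets past the threshold), 0 for morphants from 36 to 60 hours, and 0 at 60 hours and on average between morphants and controls; GABA-A receptor betaZ2 then differed by -0.32 and GABARAP-like by -0.45. From 36 to 48 hours in controls they gave 18 higher and 0 lower, where 14.2% of all probe sets passed in either direction. For the average difference, centring on medians, cyclic loess and leaving out the dimmest control arrays (chosen after seeing the data) each gave 1, and standard-error weights 0. Array weights gave 3 at 48 hours (6.33% of all probe sets passed), 17 at 60 hours (41.8% of all), 12 on average (23.6%), 3 in the F-test (17.9%), 24 for controls from 48 to 60 hours (51.7%) and 26 for morphants from 36 to 60 hours (30.9%). Standard-error weights gave 5 at 60 hours (5.85% of all) and 9 for controls from 36 to 48 hours (18.8%). Only the groups compared gave 1 at 48 hours (3.04%), 0 at 60 hours, 8 for controls from 36 to 60 hours (4.34%) and 7 from 36 to 48 (6.62%). Probe sets above the median level gave 4 for controls from 48 to 60 hours, from 32 tested members (28.6% of all). At 60 hours, no trend and the dimmest arrays left out gave 0. Some of these fits used fewer probe sets or arrays, and why the counts moved was not tested.

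With a single array left out, the counts ran from 17 to 22 for controls from 36 to 60 hours, 8 to 18 from 36 to 48, 8 to 12 from 48 to 60, and 8 to 23 for morphants from 36 to 60 hours (8 without morphant array 3 at 60 hours). Between morphants and controls they ran from 0 to 2 at 36 hours, 0 to 0 at 48, 0 to 2 at 60, 1 to 7 on average (7 without control array 3 at 36 hours) and 0 to 0 in the F-test. The shares of all probe sets in these fits are not given here, so the ranges describe only how the counts moved.

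With the array number as a replicate block over all times, no count moved by over 1.5 times (2 on average and 1 at 60 hours). With the block within each time, chosen after seeing the data, 0 passed at 60 hours (snap25b adjusted p = 0.0517 in limma) and 1 on average.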
